A study of Mus musculus with 9 samples.

Results

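The comparison asked what the transcriptome of a Pd-l1-deficient tumour line looks like once wild-type Pd-l1 is put back. It set 3 samples labelled WT against 3 labelled KO, 6 of the 9 samples of the study, over the 12212 of 53796 genes whose mean reached 1 FPKM across the 9 samples. The cells were CT26, a mouse colorectal carcinoma line. All groups carried the Pd-l1 knockout, a retroviral vector and puromycin selection, and were kept as polyclonal populations. The vector was a control in KO, carried wild-type mouse Pd-l1 in WT, and carried the K262Q mutant in the other 3 samples (K262Q), which serve here only to place the called genes. In K262Q a lysine of Pd-l1 is replaced by glutamine. The labels do not say whether the 3 samples of a group were separate cultures, so the p-values reflect variation among these libraries only, and part of it may be technical. Only RNA was measured, in bulk, so fewer cells that express a gene and less RNA per cell cannot be told apart.

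Pd-l1, encoded by Cd274, is a membrane protein that engages the receptor PD-1 on T cells and restrains them. Tumour cells commonly produce it in response to interferon gamma, through JAK kinases and the transcription factor IRF1. Its protein is kept at the cell surface by CMTM6, and its cytoplasmic tail is subject to several modifications. No T cells or added interferon are named in the labels, so the comparison concerns tumour cells grown alone.

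Values are FPKM, in which fragment counts are divided by transcript length and by library size. Differences are WT minus KO on the log2(FPKM + 1) scale with their SE, and folds are taken from that scale, which understates the change of genes at low level. A gene is called where limma's p, adjusted by Benjamini-Hochberg over all 12212 genes, is under 0.05. The steps between the lowest values put the depth at 19.66 M to 20.33 M fragments (M, 1e6) in the KO libraries and 20.23 M to 20.71 M in the WT libraries. Over all 9 libraries 1 FPKM of a transcript of 2000 nt stood for 35.1 to 37.2 fragments, with a counting SD of 16.9%.

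Cd274 itself separated the groups. It measured 0.982, 0.357 and 0.791 FPKM in the KO libraries and 35.6, 35.4 and 38.0 FPKM in the WT libraries. The K262Q libraries measured 37.6, 41.3 and 40.1 FPKM. Every WT library was far above every KO library, and the KO libraries were not at 0. The implied number of Cd274 fragments was 67, 24 and 55 in KO against 2517.6, 2461.1 and 2627.5 in WT. The difference was 4.47 ± 0.13 (SE, limma adjusted p = 5.79e-06), and the ratio of the group means was 51.2. Cd274 lies at chr19:29367455-29388095 (GRCm38, plus strand), but in rescued cells the vector also supplies its transcript, and the deposited values do not separate the 2 sources. How much of the 3622 nt model the vector carries is not given in the sources used here, and FPKM and the ratio depend on it. Of its 31-base words 15.4% occur in other genes.

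Beyond Cd274 few genes moved. In all, 10 of 12212 genes were called, 0.0819% of those tested, with 6 higher in WT (0.0491%) and 4 lower (0.0328%). An unadjusted p under 0.05 was reached by 686 genes (5.62%), of which 200 were higher in WT (1.64%) and 486 lower (3.98%). The 3 WT and 3 KO values did not overlap for 1127 genes (9.23%), 336 with WT above (2.75%) and 791 with WT below (6.48%). The share of higher genes among those under 0.05 depended on the scaling: it was 29.2% as deposited, 45.8% of 637 genes with TMM factors and 49.9% of 623 genes with upper-quartile factors. The median difference over all tested genes was -0.02, and 87.3% of genes differed by less than 0.25. The called genes were 6 models of at least 200 nt, among them Cd274, Gm17067, 2900060B14Rik, BC055324 and Coq4, and 4 models under 200 nt. Without WT replicate 3 the count of called genes was 18, of which 9 were among these 10.

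**Figure D1:**
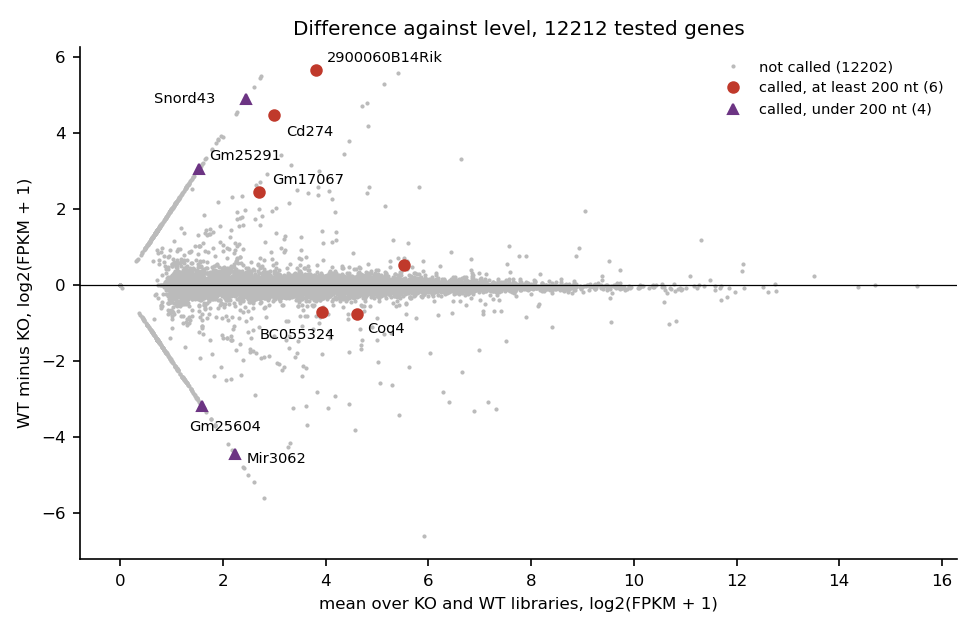
Difference between WT and KO (vertical axis, log2(FPKM + 1)) against the mean over the 6 libraries (horizontal axis, log2(FPKM + 1)) for the 12212 tested genes. Circles are the 6 called models of at least 200 nt and triangles the 4 called models under 200 nt, and the diagonal lines of grey points hold models at or near 0 in 1 group.

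Gm17067 and 2900060B14Rik were called models above 200 nt that rose. Gm17067, a predicted protein-coding gene at chr7:42705469-42727017 (minus strand), measured 1.75, 2.18 and 1.55 FPKM in KO and 17.4, 14.2 and 11.6 FPKM in WT. K262Q measured 1.96, 2.34 and 2.24 FPKM. KO and K262Q sat together at a low level and all 3 WT libraries stood above them. The difference was 2.43 ± 0.15 (adjusted p = 0.000698), and K262Q minus WT was called as well (adjusted p = 0.00203, against a background of 9.38% of genes called there), and K262Q minus KO was not (adjusted p = 0.535, 1.26% called). Those contrasts share their WT or KO libraries with this one. Of its 31-base words 22.5% occur in other genes, 184 of them, with the largest share (11.9%) in the zinc-finger gene Zfp976, so fragments could be assigned among copies. Its call held in each of 18 alternatives.

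2900060B14Rik is an antisense transcript of 616 nt at chr1:118458652-118459267 (minus strand), inside Clasp1, a microtubule-binding gene on the plus strand. It measured 1.17, 0.493 and 1.43 FPKM in KO against 73.1, 78.8 and 164 FPKM in WT. The K262Q values were 0.242, 0.282 and 0.282 FPKM. All 3 WT libraries were high, with replicate 3 more than the others, and both other groups were near 0. The difference was 5.64 ± 0.31 (adjusted p = 0.000413). Clasp1 itself differed by -0.03 ± 0.08. The model contains the small nuclear RNA gene Gm22710, with which it shares 16.2% of its 31-base words. Whether the counting used strand is not given in the sources used here, so fragments of the overlapping genes cannot be told apart.

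Coq4 and BC055324 were the called models of at least 200 nt that fell. Coq4 encodes a protein of the mitochondrial complex that builds coenzyme Q, the lipid that carries electrons from complexes I and II to complex III. BC055324 is a protein-coding gene at chr1:163945993-163994796 (minus strand) that overlaps the kinase-like gene Scyl3. The 250 bases upstream of each RefSeq start (RefSeq, GRCm38.p6) are shown because these are the genes called lower that have proteins as products. Capitals mark CACGTG in the first and CCAAT, or ATTGG on the other strand, in the second.
Coq4 (chr2:29787243-29787492, plus strand): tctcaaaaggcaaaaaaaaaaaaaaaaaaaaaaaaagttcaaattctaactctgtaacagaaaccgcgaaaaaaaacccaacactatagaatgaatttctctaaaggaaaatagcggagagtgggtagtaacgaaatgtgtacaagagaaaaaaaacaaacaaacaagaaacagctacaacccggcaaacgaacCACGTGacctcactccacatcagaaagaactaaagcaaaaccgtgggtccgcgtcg
BC055324 (chr1:163994797-163995046, minus strand): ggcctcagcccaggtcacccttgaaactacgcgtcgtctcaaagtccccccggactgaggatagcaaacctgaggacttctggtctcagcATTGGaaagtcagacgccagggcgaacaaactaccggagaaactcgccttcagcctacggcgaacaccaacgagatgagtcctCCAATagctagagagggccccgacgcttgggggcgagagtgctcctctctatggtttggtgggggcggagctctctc
The Coq4 window lies inside the model of the neighbouring gene Trub2, which runs on the minus strand, so it is not sequence between genes. It is 37.2% G and C, against a median of 52.4% over 32851 windows of that length, and the BC055324 window 58.8%. CACGTG occurs in 6.02% of all windows and CCAAT, on either strand, in 33.8%. TTCNNNGAA occurs in neither window and in 7.02% of all windows.

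Coq4 measured 29.6, 29.5 and 33.3 FPKM in KO and 15.5, 18.6 and 19.3 FPKM in WT. K262Q measured 25.0, 24.0 and 24.7 FPKM. The 3 groups did not overlap: KO was highest, K262Q between, WT lowest. Coq4 fell 1.70-fold in WT relative to KO, a difference of -0.76 ± 0.08 (adjusted p = 0.0291). K262Q minus WT was called (adjusted p = 0.0259) and K262Q minus KO was not (adjusted p = 0.0967). The call was lost when only WT and KO entered the fit (adjusted p = 0.368) and in 7 of 9 fits that left out 1 library (adjusted p from 0.0895 to 0.12). It was kept without WT replicate 1 and without WT replicate 3, and the difference stayed between -0.82 and -0.67.

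Coq4 (chr2:29787493-29797935, plus strand) lies head to head with Trub2, which encodes a mitochondrial pseudouridine synthase. Their RefSeq starts are 178 bases apart, the GENCODE models overlap by 1010 bases, and 28.9% of the 31-base words of Coq4 occur in Trub2. Strand use in counting is not given in the sources used here, so fragments from the shared stretch could be counted for either gene. Trub2 measured 29.7, 22.1 and 32.1 FPKM in KO and 29.9, 24.1 and 27.8 FPKM in WT. These ranges overlapped, with a difference of -0.02 ± 0.15. On the other side Slc27a4, a fatty acid transporter, differed by -0.01 ± 0.06. None of the 8 tested neighbours of Coq4 was called.

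No other gene of coenzyme Q synthesis was called. Of 13 genes listed, 12 were tested and Coq4 was the only one called, and the median difference of the 12 was -0.005 beside -0.02 over all genes. The remaining 11 lay between -0.17 (Coq9, a lipid-binding partner of Coq7) and 0.16 (Coq10a, a coenzyme Q chaperone). Coq9 measured 60.1, 54.1 and 49.8 FPKM in KO and 45.2, 46.5 and 53.2 FPKM in WT, which overlap. Pdss1, a subunit of the enzyme that makes the isoprenoid tail, differed by -0.06 ± 0.05, and Coq2, which joins tail and ring, by 0.05 ± 0.07.

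BC055324 measured 18.1, 18.9 and 18.3 FPKM in KO and 11.2, 11.3 and 10.49 FPKM in WT. K262Q measured 14.05, 15.9 and 12.9 FPKM. The order of the groups was that of Coq4, KO above K262Q above WT with no overlap. The difference from KO to WT was -0.70 ± 0.07 (adjusted p = 0.0191), a fall of 1.62-fold. K262Q minus WT was called (adjusted p = 0.0321) and K262Q minus KO was not (adjusted p = 0.0595). The call was lost in 7 of the 9 fits without 1 library, with adjusted p up to 0.112, and it held without K262Q replicate 2 and without K262Q replicate 3. Scyl3, with which BC055324 shares 10.1% of its 31-base words, differed by -0.12 ± 0.06 and was not called. Fragments from that shared sequence could likewise be counted for either gene.

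**Figure D2:**
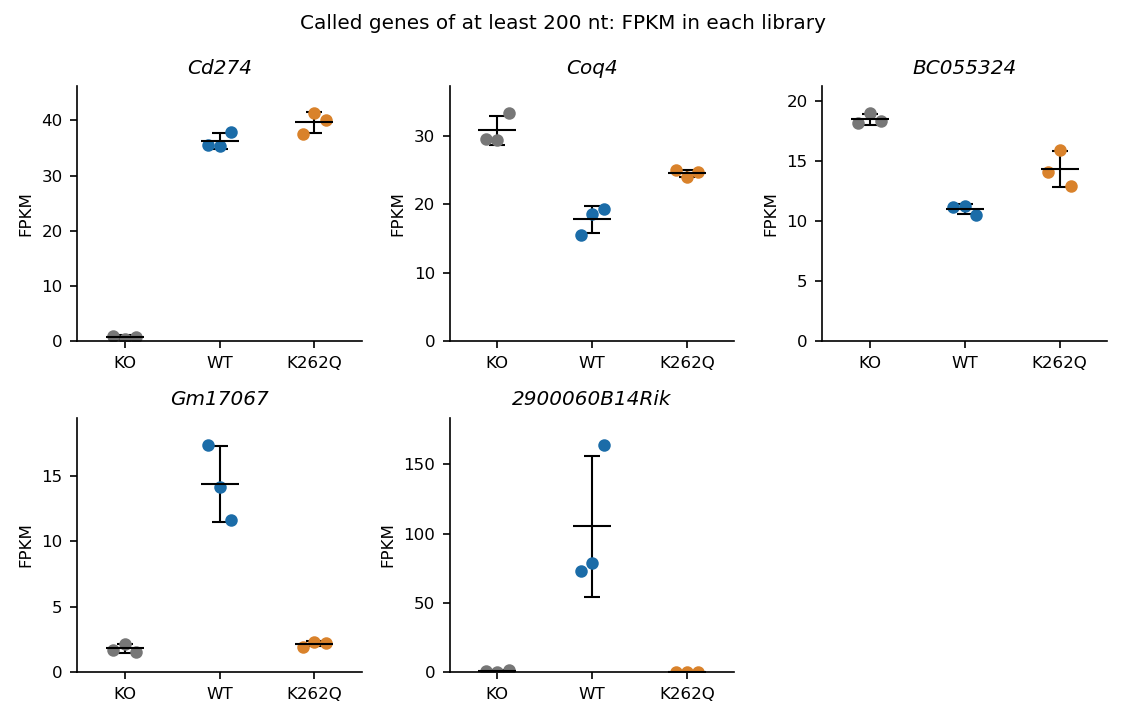
FPKM of 5 of the 6 called genes of at least 200 nt (vertical axes from 0) in the KO, WT and K262Q libraries. Points are libraries, bars the mean and whiskers the SD of 3 libraries, and WT stands apart from KO in all 5 panels, with K262Q beside WT only for Cd274.

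None of the nearest tested genes on either side of Cd274 was called. Jak2, the kinase upstream of interferon gamma signalling, measured 19.8, 18.4 and 19.1 FPKM in KO and 18.6, 17.9 and 17.6 FPKM in WT. Plgrkt, a plasminogen receptor gene, lies head to head with Cd274 on the minus strand, and its start is 65 bases before Cd274. Plgrkt measured 30.9, 32.7 and 35.1 FPKM in KO and 35.9, 36.9 and 34.7 FPKM in WT. Both pairs of ranges overlap. Over the 8 nearest tested genes the differences ran from -0.16 (Ak3) to 0.15 (Ermp1), and Ermp1 had the smallest p (0.0391, adjusted p = 0.877). The PD-1 ligand gene Pdcd1lg2 was listed at 0 in all 6 KO and WT libraries.

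**Figure D3:**
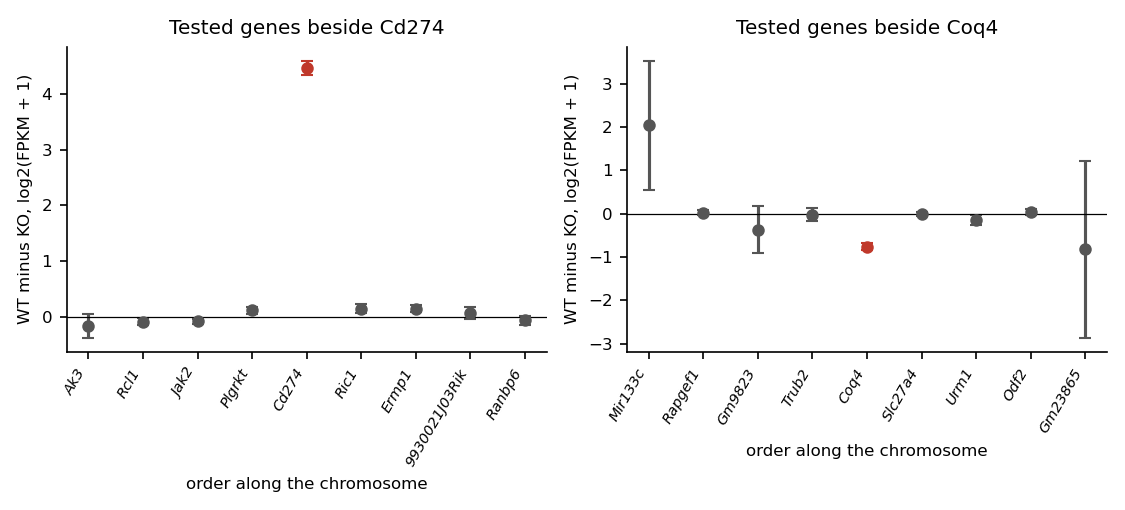
WT minus KO (vertical axes, log2(FPKM + 1), bars are SE) for the 4 nearest tested genes on each side of Cd274 and of Coq4, in order along the chromosome. Cd274 at 4.47 stands apart from all its neighbours. Around Coq4 at -0.76 the other protein-coding genes lie near 0, while the short models Mir133c (2.05) and Gm23865 (-0.82) and the pseudogene Gm9823 (-0.36) lie away from 0 with wide bars.

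The 4 called models under 200 nt rest on a handful of fragments. Mir3062 measured 20.9, 21.2 and 20.5 FPKM in KO and was listed at 0 in the other 6 libraries. Each KO value is 1 step, the smallest unit of that model's values and read here as 1 fragment, so that 3 fragments were seen in all. Gm25604, a small nucleolar RNA, likewise held 1 fragment in each KO library, at 8.01, 8.13 and 7.86 FPKM. Snord43, also a small nucleolar RNA, was listed at 0 in KO and held 5 fragments in WT, at 17.8, 36.4 and 36.5 FPKM, and 5 in K262Q. Gm25291 held 4 fragments in WT, at 5.67, 5.78 and 11.6 FPKM, and none in the other 2 groups. All values above 0 lay within 0.0007 of a whole multiple of the smallest step. Although the test called all 4, no fold is given. With only WT and KO in the fit Gm25291 was not called (adjusted p = 0.0725).

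Several named genes came next in rank without passing. Bhlhe40, a transcriptional repressor tied to circadian and hypoxia responses, measured 20.7, 21.5 and 18.6 FPKM in KO and 27.4, 28.5 and 29.0 FPKM in WT. Its difference was 0.46 ± 0.07 (adjusted p = 0.122), and it was called only under upper-quartile scaling (adjusted p = 0.0411). Ogn, which encodes the matrix proteoglycan osteoglycin, measured 19.5, 20.0 and 19.6 FPKM in KO and 26.4, 27.6 and 26.1 FPKM in WT (0.42 ± 0.06, adjusted p = 0.122). These genes were taken only where WT and KO do not overlap, so their separation is fixed by the choice. The others with WT above KO were Slc39a13 (a zinc transporter, 0.19), Spns1 (a lysosomal lipid transporter, 0.48), Myo9a (an unconventional myosin, 0.24), Dkk2 (a secreted modulator of Wnt signalling, 0.27), the mitochondrial tRNA gene mt-Ts2 (a model of 59 nt, 1.18) and Ephx1 (microsomal epoxide hydrolase, 0.35). Their adjusted p ran from 0.434 to 0.651.

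With WT below KO, Unc13a, a gene of synaptic vesicle priming, measured 7.99, 7.35 and 7.68 FPKM in KO and 5.19, 4.13 and 5.04 FPKM in WT (-0.59 ± 0.09, adjusted p = 0.144). Psme2, a subunit of the PA28 proteasome activator, measured 94.6, 114 and 99.0 FPKM in KO and 76.4, 74.4 and 77.7 FPKM in WT (-0.42 ± 0.08, adjusted p = 0.434). Cdk2, the kinase of S-phase entry, measured 23.7, 24.2 and 21.99 FPKM in KO and 17.98, 20.1 and 18.5 FPKM in WT (-0.29 ± 0.05, adjusted p = 0.444). The same choice fixes the separation of these 3 genes. The others were the pseudogene Ube2d-ps (-0.36), Bbs7 of the ciliary BBSome (-0.54), Med4 of the Mediator complex (-0.22), Zfand5 (-0.28) and Oas1c of the oligoadenylate synthetase family (-0.81), with adjusted p from 0.296 to 0.59.

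**Figure D4:**
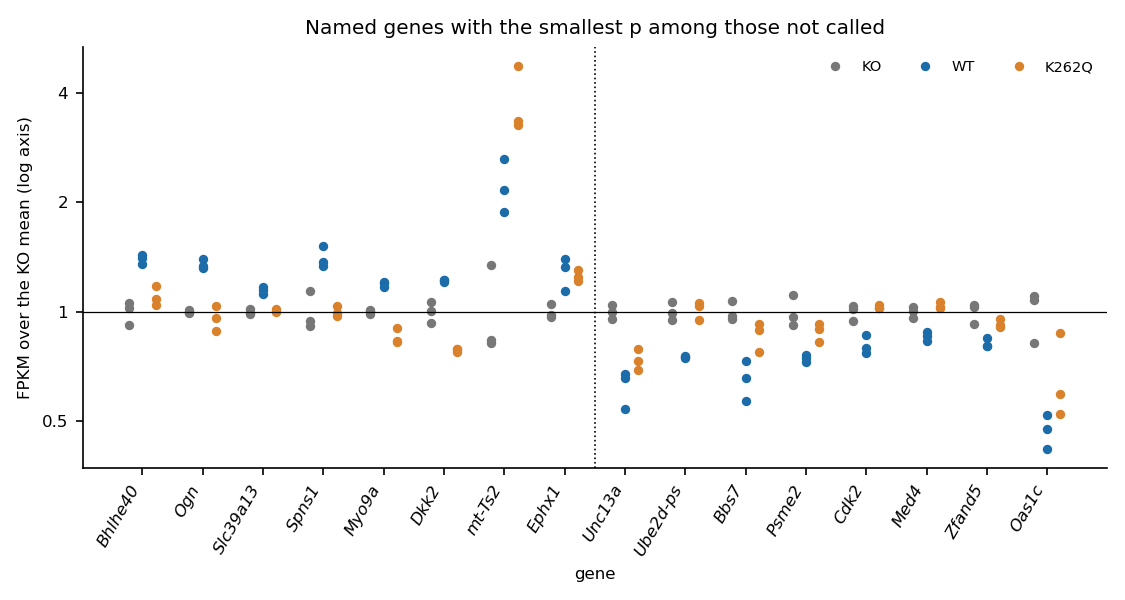
FPKM of each library divided by the KO mean (vertical axis, log scale) for the 16 genes that the naming rule took by smallest p among those not called, 8 with WT above KO left of the dotted line and 8 with WT below KO right of it. KO, WT and K262Q libraries are separate points. The rule took only genes whose WT and KO values do not overlap, so that gap is no finding, and most WT points lie within 2-fold of the KO mean.

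Some named genes had larger differences at an unadjusted p under 0.05. Ucp2, a mitochondrial carrier, measured 2.73, 2.03 and 3.71 FPKM in KO and 4.16, 3.95 and 8.15 FPKM in WT (0.71 ± 0.26, adjusted p = 0.854). Ndufaf6, a complex I assembly factor, measured 9.40, 7.24 and 9.002 FPKM in KO and 11.6, 13.9 and 20.3 FPKM in WT (0.74 ± 0.25, adjusted p = 0.854). Differences with WT below KO were as large: Rhod (-1.28 ± 0.44), the pseudogene Eif3s6-ps2 (-0.85 ± 0.30) and Lyst (-0.70 ± 0.21), each with adjusted p = 0.854. All of these genes were chosen for groups that do not overlap, and none was called.

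No gene of interferon signalling was called. Irf1 measured 19.3, 18.4 and 16.9 FPKM in KO and 19.2, 17.8 and 15.3 FPKM in WT, and the ranges overlap. In the list of interferon receptors, JAK-STAT genes and their feedback inhibitors 2 of 25 tested members reached an unadjusted p under 0.05, 8% beside 5.62% of all genes. They were the kinase gene Jak1 (-0.19 ± 0.07) and the inhibitor Socs1 (-0.16 ± 0.07), both with adjusted p of at least 0.859. Among 47 interferon-stimulated genes 1 did so, the GTPase gene Ifi47 (0.14 ± 0.04, adjusted p = 0.854), and the list's median was 0.034. Without KO replicate 2 that median was -0.020, beside -0.014 for all genes. Over all fits without 1 library it ran from -0.021 to 0.118.

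In MHC class I presentation 3 of 20 tested members had an unadjusted p under 0.05, in both directions, which is 15% beside 5.62% of all genes. Psmb8, an immunoproteasome subunit, measured 11.3, 11.96 and 13.6 FPKM in KO and 13.7, 15.6 and 15.8 FPKM in WT (0.27 ± 0.09, adjusted p = 0.854). The heavy chain gene H2-D1 measured 238, 246 and 270.3 FPKM in KO and 279, 267 and 284 FPKM in WT (0.14 ± 0.06, adjusted p = 0.874), and its ranges overlap. Psme2, given above, was the member with WT below KO. B2m, the light chain, differed by 0.06 ± 0.04 and H2-K1 by 0.03 ± 0.07. The list's median was 0.030, and 0.000 without KO replicate 2. Over all fits without 1 library it ran from 0.000 to 0.095.

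The genes that act on Pd-l1 protein were not called either. None of 29 tested members of a list of stability, trafficking and modification genes reached an unadjusted p under 0.05, and their median was -0.016. Without KO replicate 2 the median was 0.017, and 1 member was under 0.05. Cmtm6 measured 5.24, 6.49 and 5.27 FPKM in KO and 5.44, 5.57 and 5.49 FPKM in WT. The acetyltransferase genes Ep300 and Crebbp differed by 0.12 ± 0.09 and -0.28 ± 0.22. Hip1r, an adaptor that sends Pd-l1 to lysosomes, differed by -0.24 ± 0.13, and Gsk3b, a kinase that marks it for degradation, by 0.14 ± 0.07. Of 11 other checkpoint and costimulatory surface genes none reached 0.05. Cd80 measured 11.1, 8.46 and 14.4 FPKM in KO and 14.5, 11.99 and 12.9 FPKM in WT, and Pvr 63.8, 51.7 and 70.4 FPKM against 69.2, 63.9 and 69.9 FPKM. Lists of nucleic acid sensing (22 tested), NF-kB (22 tested) and tumour cytokine genes (15 tested) held no member under 0.05, with medians of -0.006, 0.039 and 0.078. Leaving out KO replicate 2 made these 0.000, 0.005 and 0.014, and 1 NF-kB gene was then under 0.05.

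Growth genes lay slightly below 0 as lists. Of 30 tested DNA replication genes 29 had WT below KO, with a median of -0.098, and 4 (13.3%) had an unadjusted p under 0.05, all with WT below KO. Over all 12212 genes 4964 had WT above KO, 3.98% were under 0.05 with WT below KO, and the median was -0.020. The 4 genes were Orc6 of the origin recognition complex (-0.17 ± 0.05), the clamp loader gene Rfc3 (-0.21 ± 0.06), the clamp gene Pcna (-0.16 ± 0.07) and the helicase gene Mcm5, none called. The median was -0.046 without KO replicate 2, beside -0.014 for all genes, and ran from -0.127 to -0.046 over all fits without 1 library. With upper-quartile and TMM factors it was -0.069 and -0.075, where the median of all genes was 0.004 and 0.000. In the mitosis list 2 of 33 tested genes were under 0.05, the cyclin genes Ccnb1 (-0.23 ± 0.09) and Ccnb2 (-0.10 ± 0.04), and the median was -0.062. Without KO replicate 2 that median was -0.013, beside -0.014 for all genes, and 1 of the 33 was under 0.05. Over all fits without 1 library the mitosis median ran from -0.094 to -0.013. Of 33 cytosolic ribosomal protein genes 7 (21.2%) were under 0.05, all with WT below KO and with no overlap, and the median was -0.086. The shares over all genes were 3.98% and 6.48%. Rpl5 measured 14.2, 14.1 and 13.3 FPKM in KO and 10.47, 12.3 and 10.8 FPKM in WT (-0.29 ± 0.07, adjusted p = 0.819). The ribosomal median was -0.060 without KO replicate 2. No ribosomal protein gene was called.

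Several medians of stress and early response lists changed sign or size when KO replicate 2 was left out. For 22 tested immediate early genes, which growth factors switch on within minutes, the median was 0.084, and -0.070 without KO replicate 2. Over all fits without 1 library it ran from -0.070 to 0.174. Egr1 measured 43.6, 16.1 and 60.7 FPKM in KO and 63.1, 52.5 and 59.0 FPKM in WT (0.71 ± 0.41, adjusted p = 0.885). Among the KO and WT libraries KO replicate 2 alone stood low, and the K262Q libraries were as low, at 18.1, 15.8 and 15.4 FPKM. Ier3 measured 43.8, 47.7 and 48.7 FPKM in KO and 51.9, 60.02 and 63.2 FPKM in WT, without overlap (0.31 ± 0.08, adjusted p = 0.854). Among 22 tested p53 targets 3 were under 0.05 (13.6%): Mdm2, the ubiquitin ligase of p53 (0.27 ± 0.07), Trp53inp1 (0.15 ± 0.06) and Trp53 itself (-0.12 ± 0.05). That median was 0.081, and 0.015 without KO replicate 2. In the unfolded protein response 4 of 22 genes were under 0.05 (18.2%), all with WT below KO. They included Manf (-0.21 ± 0.08), Creld2 (-0.17 ± 0.07) and Sdf2l1 (-0.18 ± 0.07). Over all tested genes 5.62% were under 0.05, and 3.98% were so with WT below KO. Without KO replicate 2 none of the 22 unfolded protein response genes was under 0.05. In the ATF4 list 2 of 28 were under 0.05, the serine synthesis genes Phgdh and Psat1, and the median moved from -0.004 to -0.095 without that library. In the same fit 6 of 28 ATF4 genes, 5 of 22 p53 targets and 4 of 22 immediate early genes were under 0.05. Over all 12212 genes 623 were under 0.05 in that fit.

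Metabolic lists held no call apart from Coq4. Of 46 tested nuclear genes of the respiratory chain 3 were under 0.05, 6.52% beside 5.62% of all genes. They were Etfdh, which passes electrons to coenzyme Q (0.37 ± 0.12), Atp5b (-0.12 ± 0.04) and Ndufa4 (-0.14 ± 0.06). Etfdh measured 15.2, 15.2 and 14.5 FPKM in KO and 15.7, 20.8 and 22.7 FPKM in WT. The respiratory list's median was -0.050, and that of 9 mitochondrially encoded genes -0.077 with no member under 0.05. Without KO replicate 2 these medians were -0.036 and -0.041, and 1 respiratory chain gene was under 0.05. In cholesterol synthesis none of 22 was under 0.05, and the median was -0.079, or -0.016 without KO replicate 2. Over all fits without 1 library that median ran from -0.126 to -0.016. In fatty acid synthesis 2 of 16 were under 0.05, Elovl1 (-0.15 ± 0.04) and the transcription factor gene Srebf1 (-0.23 ± 0.06). Glycolysis held 0 of 19, AKT-mTOR signalling 1 of 25 (Mlst8), autophagy 1 of 25 (Atg4b) and the Bcl2 family 1 of 14 (Bok).

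**Figure D5:**
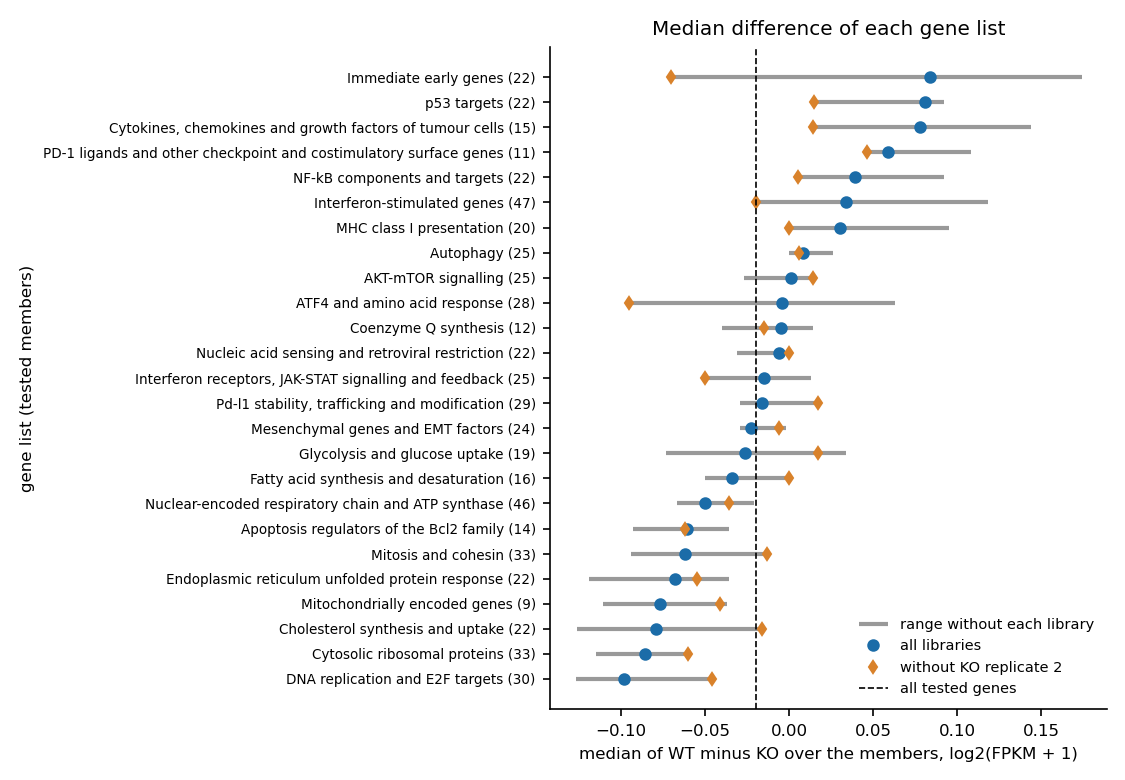
Median WT minus KO difference (horizontal axis, log2(FPKM + 1)) over the tested members of each gene list. Circles use all libraries, diamonds leave out KO replicate 2, grey lines span the 9 fits that leave out 1 library, and the dashed line is the median of all tested genes, -0.020.

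Most markers of other cell types, and most of colorectal epithelium, were low. Of 15 colorectal epithelial markers 5 reached 1 FPKM in any of the 6 libraries, Cdh1 and Cldn3 were listed at 0 in all of them, and the summed level was 79.2 to 86.0 FPKM in KO and 75.2 to 77.9 FPKM in WT. Krt18 measured 34.9, 34.3 and 35.7 FPKM in KO and 32.6, 30.2 and 29.6 FPKM in WT (-0.18 ± 0.05, adjusted p = 0.854). Of the 4 tested epithelial markers 1 had WT above KO, Lgals4, at a low level and without overlap (0.31 ± 0.19, adjusted p = 0.885). Of 18 leukocyte markers only Cd68 reached 1 FPKM, 5 were listed at 0, and the sums were 3.23 to 5.01 FPKM in KO and 3.33 to 3.75 FPKM in WT. Of 12 endothelial and fibroblast markers 3 reached 1 FPKM and 5 were listed at 0, with sums of 16.3 to 20.1 FPKM in KO and 19.7 to 25.0 FPKM in WT. Pdpn, podoplanin, measured 9.75, 9.40 and 11.1 FPKM in KO and 12.2, 12.3 and 12.2 FPKM in WT (0.26 ± 0.06, adjusted p = 0.819). The other tested members of that list differed by 0.31 ± 0.25 (Col1a1) and -0.19 ± 0.22 (Pdgfra), both with overlapping groups. In the list of mesenchymal genes and their factors 2 of 24 were under 0.05, 8.33% beside 5.62% of all genes. They were Zeb1 (-0.58 ± 0.21) and Zeb2 (0.34 ± 0.14), and both had overlapping groups. None of the 24 was under 0.05 without KO replicate 2.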

How the data were processed

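RNA-seq of 9 CT26 samples, 3 per group, was used. Per the submitters' processing notes, reads were processed with STAR 2.5.4a, Cufflinks 2.2.1 and Cuffdiff on mm10. The authors deposited 1 FPKM value per gene and sample, with no read counts. Parameters and strand use are not given in the sources used here. FPKM is normalised for length and library size, so the values of very short gene models are large per fragment.

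Genes were joined by ID to GENCODE mouse release 21 (GRCm38): 53702 of 53796 had a record, and 97.71% of these lay inside the deposited locus. Of all genes 26417 were listed at 0 in all 9 samples. Depth was inferred from single-transcript genes at low level (4678 genes): 87.9% of 27783 values lay within 0.05 of a whole fragment, where evenly spread values would give 10%. The inferred depth covers counting error only.

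Genes with a mean of 1 FPKM or more were transformed to log2(FPKM + 1), a pseudocount of 1, and fitted with limma 3.58.1 (R 4.3.3; eBayes with trend) in 1 model of 3 groups and 9 samples. Tests were two-sided, with p adjusted by Benjamini-Hochberg and a threshold of 0.05. An exact permutation test of 3 against 3 cannot go below p = 0.1. The fit was tested on simulated data. Other tools were numpy 2.4.6, pandas 2.3.3 and scipy 1.17.1 under Python 3.11.15, with matplotlib 3.10.9 for plots.

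Named were Cd274, Coq4 and all called genes. Among the rest with a proper name, no overlap of the groups and 2 FPKM or more in the higher mean, named were the 8 each way with the smallest p and the 6 each way with the largest difference at an unadjusted p under 0.05. Up to 3 members of each list by p, some fixed members, all tested coenzyme Q genes and the 4 nearest tested genes on each side of Cd274 and Coq4 were added. A few list members given in the text for their role fall outside that rule and were chosen after their values were seen. Some items that the rule names are not reported here. The comparison, the genes and the 28 lists were chosen with earlier results of these data known. Of 731 list entries 727 matched by symbol, 3 by synonym and 1 did not match. Alternatives were another pseudocount (0.1), filter (none, or a mean of 5 FPKM), scaling (upper quartile, TMM), 2 groups only, no trend, a replicate block, no models under 200 nt, a 1.5-fold minimum and each library left out.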

Additional observations from a re-analysis of the deposited data

How the results depend on the processing

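Cd274, Gm17067 and 2900060B14Rik were called under all 18 alternatives. The number of genes called, 10, was 18 with no filter on low values, 6 with the replicate block and 6 without models under 200 nt, and 9 to 18 with 1 library left out (18 without WT replicate 3). For models of at least 200 nt, 6 as reported, it was 14 with no filter, 3 with the replicate block and 4 to 6 with 1 library left out. The cause of these shifts was not tested, except that leaving out short models removes 4 calls by construction. The difference of Coq4 was -0.763 with the replicate block (adjusted p = 0.0924) and -0.763 with only WT and KO in the fit (adjusted p = 0.368), and -0.821 to -0.672 with 1 library left out. The replicate block also ended the calls of BC055324 (adjusted p = 0.0528) and Gm25291 (adjusted p = 0.0543). Deviations of same-number KO and WT samples correlated by 0.006, -0.036 and 0.000, against -0.052 to 0.051 for other numbers. These correlations run over all tested genes, noisy short models included, so they cannot show whether replicate numbers pair the samples weakly or in some genes. Among 2565 alternative values of 144 named genes 2509 kept their direction and side of the threshold, 12 lost the call, 1 gained it, 43 moved by more than the spread and 0 reversed. Of 503 list medians 1 moved by more than the spread. The Cd68-only leukocyte list gave no median with a mean of 5 FPKM. Depth limits low genes most: 35.1 to 37.2 fragments made 1 FPKM at a length of 2000 nt.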
